A study of Mus musculus with 18 samples.

Results

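The chromatin of mouse embryonic fibroblasts was mapped with 4 histone marks in the control condition of a study of the retinoblastoma protein Rb, and the 4 maps are laid over each other here. The members are the 4 immunoprecipitated libraries of GFP-infected cells, 4 of the 18 samples in the series, taken on chromosomes 1 to 19. The fibroblasts, of mixed B6;129 background, carry a conditional Rb allele and were infected with Adeno-GFP, a virus bringing in green fluorescent protein. GFP virus served as the control for Cre virus, which deletes Rb. The cells had received no 4F construct and were expanded for a few passages after infection. The antibodies were against acetylated histone H3 (H3Ac), H3K4me3, H3K27me3 and H3K9me3. Each mark was represented by 1 library, so values here rest on single libraries and no p-value is given. Intervals in parentheses are exact (Clopper-Pearson) 95% intervals of a share. They cover counting error only and take regions as independent, which neighbouring regions are not.

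Histone tails carry chemical marks that go with the state of the DNA wrapped around them. H3K4me3 is laid down at the start of genes, and acetylated H3 is found at active promoters and at enhancers, so that both together mark active promoters and acetylation alone is often found at distal regulatory elements. H3K27me3 is the product of Polycomb repressive complex activity and covers silent developmental genes. Promoters with H3K4me3 and H3K27me3 are called bivalent and were first described in embryonic stem cells. H3K9me3 marks heterochromatin over repeats and over clusters of zinc finger genes. Some imprinted control regions carry H3K4me3 on one parental copy and H3K9me3 on the other. Because whole cell populations were assayed, overlapping peaks can come from different cells or from different copies of a chromosome.

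The deposited lists held 47904 H3Ac peaks, 22967 H3K4me3 peaks, 34064 H3K27me3 peaks and 9574 H3K9me3 peaks on the 19 autosomes. H3Ac covered 88.1 Mb, H3K27me3 66.1 Mb, H3K4me3 38.9 Mb and H3K9me3 13.5 Mb. Median peak widths lay close together, at 1448 bases for H3Ac, 1380 for H3K4me3, 1343 for H3K27me3 and 1056 for H3K9me3. The number of reads behind each list was unknown, and the length of a list depends on read number and on the quality of the pulldown besides the amount of marked DNA. The lists were not of like strength by the authors' peak score: 66.9% of H3K9me3 peaks scored below 100, near the lowest score of 50, against 37.9% of H3K27me3, 25.7% of H3Ac and 18.5% of H3K4me3 peaks. The score also has a ceiling. At 3100 or above stood 19.5% of H3K4me3 peaks, 6.59% of H3Ac peaks, 0.423% of H3K27me3 peaks and 1 H3K9me3 peak. Apart from these shares and an alternative with a minimum score of 100 in every list, scores are therefore used only to rank peaks within a list. Positions are given in build NCBIM37 and counted from 1. No gene was attached to a region and the fibroblast label was not checked against marker genes, because no gene positions of that build were used here.

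The question was which marks share a place on the genome and which stay apart. Peaks that overlapped by at least 1 base were merged across the 4 lists, and the 114509 peaks gave 89526 regions that covered 170.4 Mb, or 6.89% of the length up to the last peak of each chromosome. All 15 possible combinations of the 4 marks were found, but 4 of them held most regions. H3K27me3 alone was the most frequent with 30850 regions, 34.5% (34.1 to 34.8), followed by H3Ac alone with 27798, 31.1% (30.7 to 31.4). The pair H3Ac+H3K4me3 made up 16985 regions, 18.97% (18.7 to 19.2), and H3K9me3 alone 8501, 9.50% (9.30 to 9.69). H3K4me3 alone was found in 1672 regions, 1.87% (1.78 to 1.96). The bivalent-like pair H3K4me3+H3K27me3 followed with 1613 regions and its acetylated form H3Ac+H3K4me3+H3K27me3 with 855. H3K4me3+H3K9me3 was found 734 times, H3Ac+H3K27me3 226 times and H3K4me3+H3K27me3+H3K9me3 206 times. The other 5 combinations were rare: 37 regions had H3K27me3+H3K9me3, 31 had H3Ac+H3K4me3+H3K9me3, 11 had H3Ac+H3K9me3, 6 had all 4 marks and 1 had H3Ac+H3K27me3+H3K9me3. Regions with 1 mark made up 76.9% (76.6 to 77.1) of all regions and 65.8% of the covered bases.

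**Figure D1:**
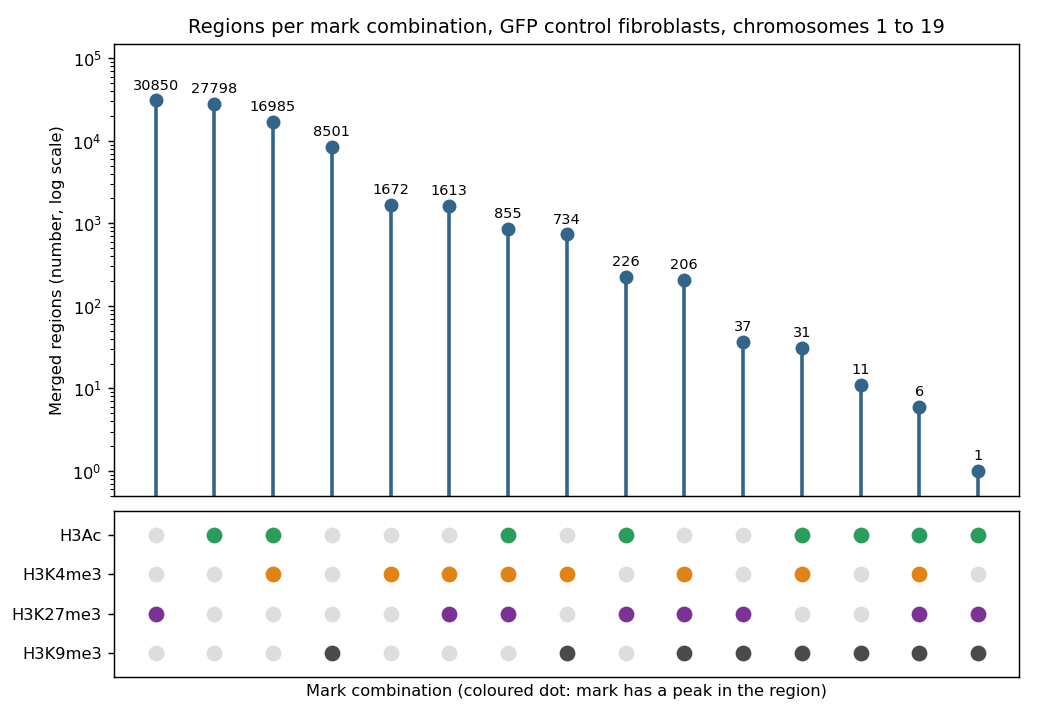
Number of merged regions (log scale) for each of the 15 combinations of H3Ac, H3K4me3, H3K27me3 and H3K9me3 in the 4 GFP libraries, in falling order, with coloured dots below for the marks present. H3K27me3 alone (30850), H3Ac alone (27798) and H3Ac+H3K4me3 (16985) stand at the left, and the combination of H3Ac, H3K27me3 and H3K9me3 (1) at the right.

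Most regions with 2 or more marks held H3K4me3. Of the 20705 regions with 2 or more marks, 20430 held H3K4me3, 98.7% (98.5 to 98.8). Most of these are the 16985 H3Ac+H3K4me3 regions. Where an H3K27me3 region had a second mark, H3K4me3 was present in 91.03% (89.9 to 92.04), and where an H3K9me3 region had one, in 95.2% (93.7 to 96.4). These 2 shares changed with the peaks that were kept. With only the 9574 top-scoring peaks of each list, they were 57.6% (51.05 to 64.01), 136 of 236 regions, and 37.7% (29.99 to 45.8), 58 of 154 regions. With peaks scoring at least 100 they rose to 93.7% (92.4 to 94.8) and 98.2% (96.4 to 99.2). Both settings alter list length and peak strength together, and the cause of the changes was not tested. H3K4me3 itself was rarely alone. Of the 22102 regions with H3K4me3, 80.9% (80.4 to 81.4) had H3Ac, 12.1% (11.7 to 12.6) had H3K27me3, 4.42% (4.15 to 4.70) had H3K9me3 and 7.56% (7.22 to 7.92) had none of them. The other marks were mostly alone. H3Ac had no other mark in 60.5% (60.1 to 61.0) of its 45913 regions, H3K27me3 in 91.3% (90.98 to 91.6) of 33794, and H3K9me3 in 89.2% (88.6 to 89.8) of 9527. Measured in bases, H3Ac covered 81.7% of the H3K4me3 bases, and H3K4me3 covered 36.0% of the H3Ac bases. H3K27me3 and H3K9me3 covered 6.91% and 3.79% of the H3K4me3 bases. With the same equal lists, 1.43% of H3K4me3 regions had H3K27me3, in place of 12.1%, and 17.6% of H3Ac regions lacked H3K4me3, in place of 61.1% (60.6 to 61.5).

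Acetylation of H3K4me3 regions went with the absence of both silent marks. Without H3K27me3 and H3K9me3, 16985 of 18657 H3K4me3 regions were acetylated, 91.04% (90.6 to 91.4). With H3K27me3 the share was 32.1% (30.4 to 33.9), 861 of 2680 regions, and with H3K9me3 it was 3.79% (2.68 to 5.18), 37 of 977 regions. The intervals of the 3 shares did not overlap, but they cover counting error within 1 library per mark only. With equal lists of 9574 peaks the share with neither silent mark was 80.9% (80.06 to 81.7). The other 2 shares could not be told apart there, at 31.6% (23.9 to 40.1) with H3K27me3, 43 of 136, and 25.9% (15.3 to 39.04) with H3K9me3, 15 of 58. With peaks within 1000 bases joined, the 3 shares were 92.9%, 44.95% and 8.35%. Merging chains neighbours together, so the same was counted over single H3K4me3 peaks that an H3Ac peak overlapped directly. The shares were then 91.3% (90.9 to 91.7) of 19281 peaks with neither silent mark, 30.2% (28.5 to 31.9) of 2823 peaks that overlapped H3K27me3, and 2.70% (1.81 to 3.85) of 1075 peaks that overlapped H3K9me3.

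H3K4me3 strength moved with these shares. The median H3K4me3 score was 1094.5 in H3Ac+H3K4me3 regions, at the 60.7th percentile of its list. It was 101.5 in H3K4me3+H3K27me3, 98.5 in H3K4me3+H3K9me3 and 79.25 in H3K4me3 alone. The median was 362.2 in H3Ac+H3K4me3+H3K27me3 and 176.4 in H3K4me3+H3K27me3+H3K9me3. The 35 H3K4me3 peaks of H3Ac+H3K4me3+H3K9me3 regions had a median of 1171. H3K4me3 regions were therefore split into quintiles by the strongest H3K4me3 peak they held, with limits taken from the whole list. In the lowest quintile (scores 50 to 106.5), 58.1% (56.2 to 59.9) of regions without a silent mark were acetylated, against 10.2% (8.41 to 12.3) of those with H3K27me3 and 0.943% (0.258 to 2.40) of those with H3K9me3. In the middle quintile (305 to 1048) the shares were 98.5% (98.1 to 98.9), 64.3% (59.9 to 68.5) and 3.25% (1.06 to 7.41). In the fourth (1048 to 3016) they were 99.95% (99.8 to 99.99), 89.5% (83.7 to 93.8) and 15% (5.71 to 29.8). In the highest quintile all 4511 regions without a silent mark, all 46 with H3K27me3 and all 13 with H3K9me3 (lower limit 75.3%) were acetylated. Regions with both silent marks count in both groups. The split by quintile was made on merged regions and not repeated on single H3K4me3 peaks. How far chains of neighbouring peaks enter these shares was therefore not tested. H3K27me3 was present in 23.2% (22.0 to 24.5) of H3K4me3 regions of the lowest quintile and in 1.01% (0.738 to 1.34) of the highest. The same shares for H3K9me3 were 10.1% (9.20 to 11.05) and 0.285% (0.152 to 0.486). H3K4me3 without any other mark made up 28.4% (27.02 to 29.8) of the lowest quintile and 0 of the 4568 regions of the highest.

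**Figure D2:**
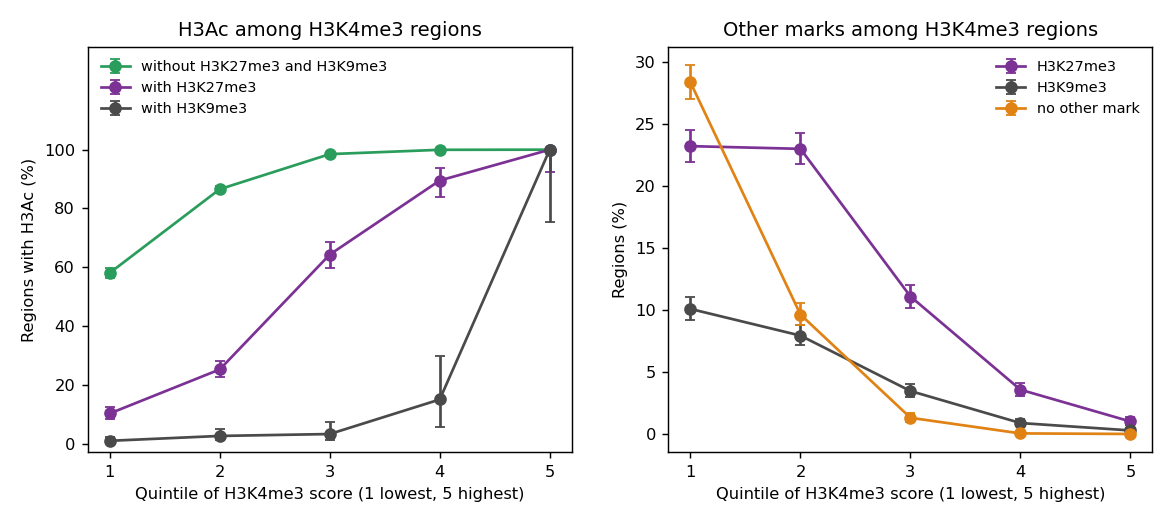
Left, share of H3K4me3 regions with H3Ac (%) in each quintile of H3K4me3 score, for regions without a silent mark, with H3K27me3 and with H3K9me3. Right, share of all H3K4me3 regions with H3K27me3, with H3K9me3 or with no other mark. Bars are exact 95% intervals. Acetylation ran from 58.1% to 100% without a silent mark and from 10.2% to 100% with H3K27me3, and stayed at or below 15% with H3K9me3 up to the fourth quintile.

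Peaks of both silent marks scored higher within their lists where they met H3K4me3. H3K27me3 peaks in H3K4me3+H3K27me3 regions had a median score of 434.6, the 82.5th percentile of their list, against 124.1 where H3K27me3 stood alone. They were also wider, with a median of 2453 against 1292 bases. This was not limited to H3K4me3: H3K27me3 peaks in H3Ac+H3K27me3 regions had a median score of 187.2 and a median width of 1640 bases. In H3K27me3+H3K9me3 regions these values were 109.3 and 1237 bases, below those of H3K27me3 alone. H3K9me3 peaks in H3K4me3+H3K9me3 regions reached a median of 158.7, the 85.3rd percentile, against 78.4 for H3K9me3 alone, and 1622 against 1030 bases. H3K4me3 peaks, too, were shortest where the mark stood alone, with a median of 797 bases, against 927 with H3K27me3, 1118.5 with H3K9me3 and 1551 with H3Ac. H3Ac peaks had a median score of 982.9 in H3Ac+H3K4me3 regions. That median was 126 for H3Ac alone, 160.6 in H3Ac+H3K4me3+H3K27me3 and 84.8 in H3Ac+H3K27me3.

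Outside H3K4me3 the Polycomb and heterochromatin marks rarely met. Of the 8550 H3K9me3 regions without H3K4me3, 38 held H3K27me3, 0.444% (0.315 to 0.610). Of the 977 H3K9me3 regions with H3K4me3, 212 did, 21.7% (19.2 to 24.4). With equal lists these shares were 0.9995% (0.809 to 1.22) of 9505 and 15.5% (7.35 to 27.4) of 58, and with peaks within 1000 bases joined they were 1.01% and 25.2%. Seen from the other mark, H3K9me3 was present in 0.122% (0.0864 to 0.168) of H3K27me3 regions without H3K4me3 and in 7.91% (6.92 to 8.998) of those with it. Over all H3K4me3 regions, H3K27me3 was more frequent with H3K9me3 than without, 21.7% against 11.7% (11.3 to 12.1). Among H3K4me3 regions without H3Ac it was less frequent, 21.9% (19.3 to 24.7) of 940 against 49.1% (47.4 to 50.8) of 3285. Single H3K4me3 peaks without H3Ac overlapped H3K27me3 in 20.1% (17.7 to 22.6) of 1046 with H3K9me3 and in 51.3% (49.6 to 52.98) of 3433 without. Among acetylated regions H3K27me3 was in 6 of 37 with H3K9me3, 16.2% (6.19 to 32.0), and in 4.79% (4.48 to 5.12) of 17840 without. On single acetylated peaks these shares could not be told apart, at 2 of 29, 6.90% (0.846 to 22.8), and 4.605% (4.31 to 4.92) of 18459. H3Ac without H3K4me3 was nearly free of both silent marks, with H3K27me3 in 0.810% (0.708 to 0.922) and H3K9me3 in 0.0428% (0.0221 to 0.0748) of 28036 regions.

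Width grew with the number of marks. The median was 1217 bases for regions with 1 mark, 2214 with 2, 3138 with 3 and 12467.5 for the 6 regions with all 4. Merging more peaks makes a region longer by construction, but combinations with the same number of marks also differed. Among single marks, H3K4me3 alone was narrowest, with a median of 797 bases and quartiles of 660 and 966. H3K9me3 alone had 1030, H3Ac alone 1275 and H3K27me3 alone 1292. Among pairs, H3K27me3+H3K9me3 was narrowest (1521), followed by H3K4me3+H3K9me3 (1988.5), H3Ac+H3K4me3 (2181), H3Ac+H3K27me3 (2462), H3K4me3+H3K27me3 (2783) and, with only 11 regions, H3Ac+H3K9me3 (3083). Regions of at least 5 kb made up 20.02% of H3K4me3+H3K27me3 and 24.8% of H3Ac+H3K4me3+H3K27me3, against 8.40% of H3Ac+H3K4me3, 4.49% of H3K27me3 alone and 1.06% of H3Ac alone. At 10 kb and above, H3K27me3 alone had 158 regions, H3Ac+H3K4me3 had 113 and H3K4me3+H3K27me3 had 69.

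Spacing set the combinations apart more than width. The median gap to the nearest region of any kind was 3310.5 bases for H3Ac alone and 3199 for H3K9me3 alone, but 679.5 for H3K27me3 alone, 584 for H3Ac+H3K4me3 and 325 for H3K4me3+H3K27me3. A neighbour lay within 1 kb of 76.5% of H3K4me3+H3K27me3 regions and of 28.6% of H3Ac-only regions. The nearest region of the same combination was 879 bases away for H3K27me3 alone, 1996 for H3Ac+H3K4me3, 4770 for H3K9me3 alone and 7004 for H3Ac alone. Of these 4, H3K9me3 alone had the widest range between quartiles, from 802 to 83594 bases. H3K4me3 alone, with 1672 regions, stood 297590 bases from the nearest of its kind, and H3K4me3+H3K27me3, with 1613, stood 123234. A gap to the same combination also depends on how many such regions there are, so these long gaps do not by themselves show dispersal. A wide domain can be reported as several peaks. When peaks within 1000 bases were joined, 64318 regions were left, and H3K27me3-only regions went from 30850 to 18167.

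**Figure D3:**
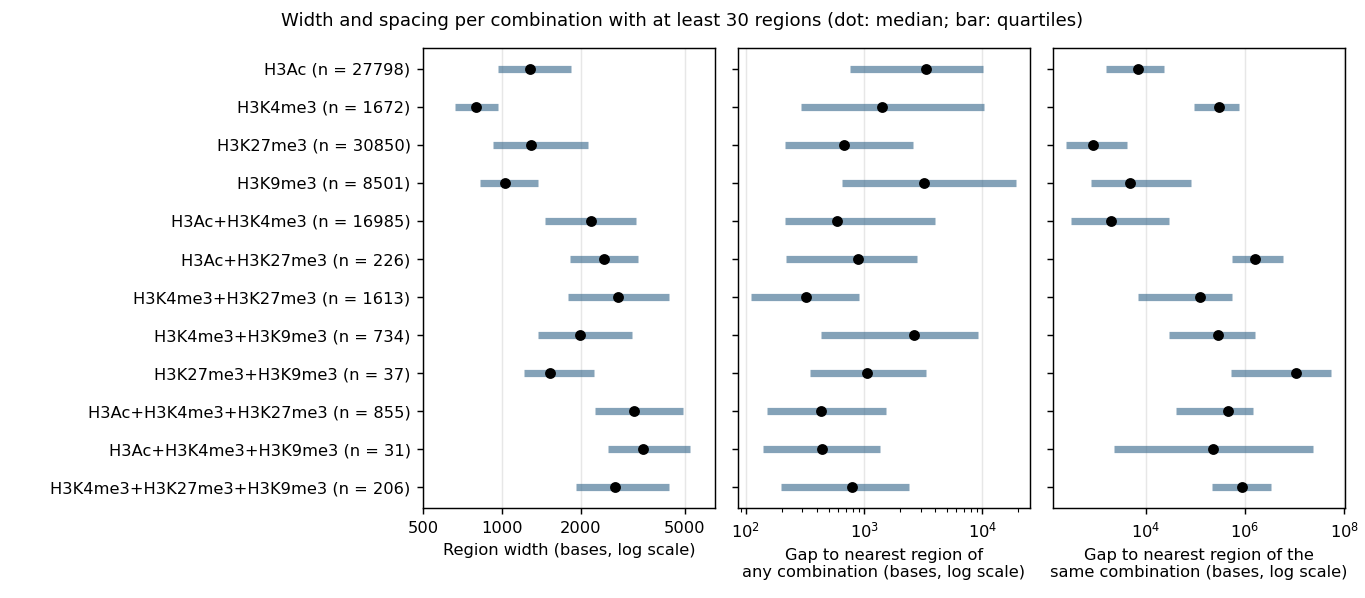
Width of merged regions, gap to the nearest region of any combination and gap to the nearest region of the same combination (bases, log scale), for the 12 combinations with at least 30 regions. Dots are medians and bars run from the lower to the upper quartile. H3K4me3 alone is narrowest at 797 bases, and H3K27me3 alone has the shortest gap to its own kind at 879 bases.

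Within a region the marks were arranged differently. Most H3Ac+H3K4me3 regions, 14861 of 16985, consisted of 1 peak of each mark. In 39.4% of these the H3K4me3 peak lay inside the H3Ac peak, in 7.93% the reverse held, and 52.7% were staggered. The median distance between the centres was 188.5 bases, and H3Ac covered a median of 98.5% of the H3K4me3 peak. In H3K4me3+H3K27me3 regions with 1 peak of each, 1461 in number, a short H3K4me3 peak (median 918 bases) lay on a longer H3K27me3 peak (2443 bases). It lay wholly inside in 42.7% and staggered in 55.0%, with a median of 703.5 bases between centres. H3K27me3 covered a median of 97.2% of the H3K4me3 peak, and H3K4me3 31.01% of the H3K27me3 peak. H3K4me3+H3K9me3 pairs were more nearly concentric, with centres 218.5 bases apart and 67.6% of the H3K9me3 peak covered. H3Ac+H3K27me3 pairs without H3K4me3 overlapped less: 80.1% of 206 were staggered, with a median overlap of 488 bases and 871.5 bases between centres.

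The share of positions covered by each mark around H3K4me3 peak centres showed the same arrangement over longer distances. In H3Ac+H3K4me3 regions, H3Ac covered 98.01% of the centres and 60.7% of positions 1 kb after them in coordinate order. At 10 kb it was 10.3%, and H3K27me3 covered 3.604% there. H3K27me3 could not cover the centres, because by definition these regions hold no H3K27me3 peak. In H3K4me3+H3K27me3 regions, H3K27me3 covered 86.7% of the centres, 68.9% at 1 kb, 39.5% at 5 kb and still 28.6% at 10 kb. H3Ac, absent from these regions by definition, stayed at or below 3.11% at 1 kb, 5 kb and 10 kb. In H3Ac+H3K4me3+H3K27me3 regions, H3K27me3 covered 55.4% of the H3K4me3 centres, 58.5% of positions 1 kb before and 56.7% 1 kb after. H3Ac covered 88.6% of these centres and 29.0% at 1 kb. In H3K4me3+H3K9me3 regions, H3K9me3 covered 93.6% of the centres, 14.6% at 5 kb and 9.08% at 10 kb.

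**Figure D4:**
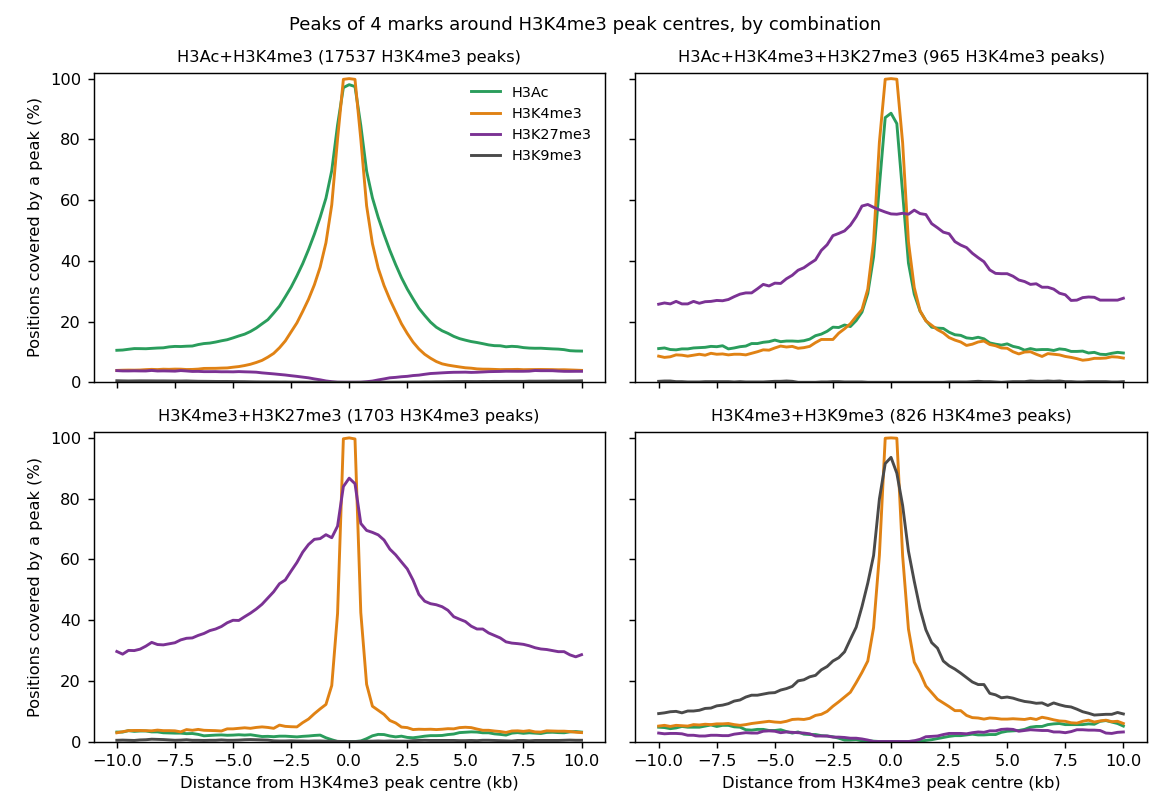
Share of positions covered by a peak of each mark (%) from 10 kb before to 10 kb after the centre of H3K4me3 peaks, in coordinate order without regard to strand, for 4 combinations. H3K27me3 stays at 28.6% 10 kb from the centre in H3K4me3+H3K27me3 regions and at 3.604% in H3Ac+H3K4me3 regions.

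Regions with 3 or 4 marks did not always hold them at 1 place. All marks of the region covered at least 1 common base in 730 of 855 H3Ac+H3K4me3+H3K27me3 regions, 85.4% (82.8 to 87.7), in 192 of 206 H3K4me3+H3K27me3+H3K9me3 regions, 93.2% (88.9 to 96.2), and in 22 of 31 H3Ac+H3K4me3+H3K9me3 regions. No base of chromosomes 1 to 19 was covered by peaks of all 4 marks, and none by H3Ac, H3K27me3 and H3K9me3 together. Each of the 6 regions with all 4 marks was a chain of 4 to 6 peaks in which at most 3 marks met. The widest ran over 19355 bases on chromosome 8 from 19883526 to 19902880, with an H3K4me3 peak at the 80.1st percentile of its list (score 3027), H3K27me3 at the 53.4th (145.6) and H3K9me3 at the 8.54th (52.85). The other 5 lay at 6476344 to 6489430 of chromosome 17, 45236370 to 45249111 of chromosome 19, 96120106 to 96131560 of chromosome 3, and 96148402 to 96160594 and 74179584 to 74186491 of chromosome 11. In these 5 the H3K27me3 peak was strong, with scores from 828.8 to 2201. The one on chromosome 17, the one on chromosome 3 and the one on chromosome 11 near 96 Mb each bordered an H3Ac+H3K4me3+H3K27me3 region. The one on chromosome 3 lay 46 bases from the widest region of that combination, which spanned 24293 bases from 96131607 to 96155899 and held 12 peaks.

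Adjacent regions tended to carry the same combination. The next region along the chromosome had the same combination in 58.8% (58.5 to 59.2) of cases, and in 49.1% with peaks within 1000 bases joined. For H3K27me3 alone the share was 74.2% (73.7 to 74.7), for H3K9me3 alone 63.0% (61.9 to 64.0), for H3Ac alone 61.3% (60.7 to 61.9) and for H3Ac+H3K4me3 40.9% (40.2 to 41.7). H3K9me3 alone made up 9.50% of all regions and 63.0% of the neighbours of its own kind, a ratio of 6.64. H3Ac+H3K4me3 had H3Ac alone as neighbour in 36.1% of cases and H3K27me3 alone in 13.4%, where these make up 31.1% and 34.5% of all regions. H3K4me3+H3K27me3 was set within H3K27me3: 62.7% of these regions had a region with H3K27me3 on both sides, against 26.9% (26.6 to 27.2) over all regions, and 4.34% had H3Ac on both sides against 38.3%. H3K4me3+H3K27me3+H3K9me3 resembled it, with H3K27me3 on both sides in 65.0% and H3K9me3 on both sides in 1.46%. H3K4me3+H3K9me3 had H3K9me3 on both sides in 22.2%, H3Ac in 25.03% and H3K27me3 in 6.02%. Over all regions these shares were 5.64%, 38.3% and 26.9%, so among these marks only the H3K9me3 share lay above that of all regions. H3K4me3 was raised as well, on both sides of 19.4% (16.6 to 22.5) of H3K4me3+H3K9me3 regions against 7.47% over all regions. The neighbours of H3K4me3 alone were H3K27me3 alone in 30.1%, H3Ac+H3K4me3 in 23.8%, H3Ac alone in 20.2% and H3K9me3 alone in 12.7% of cases.

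**Figure D5:**
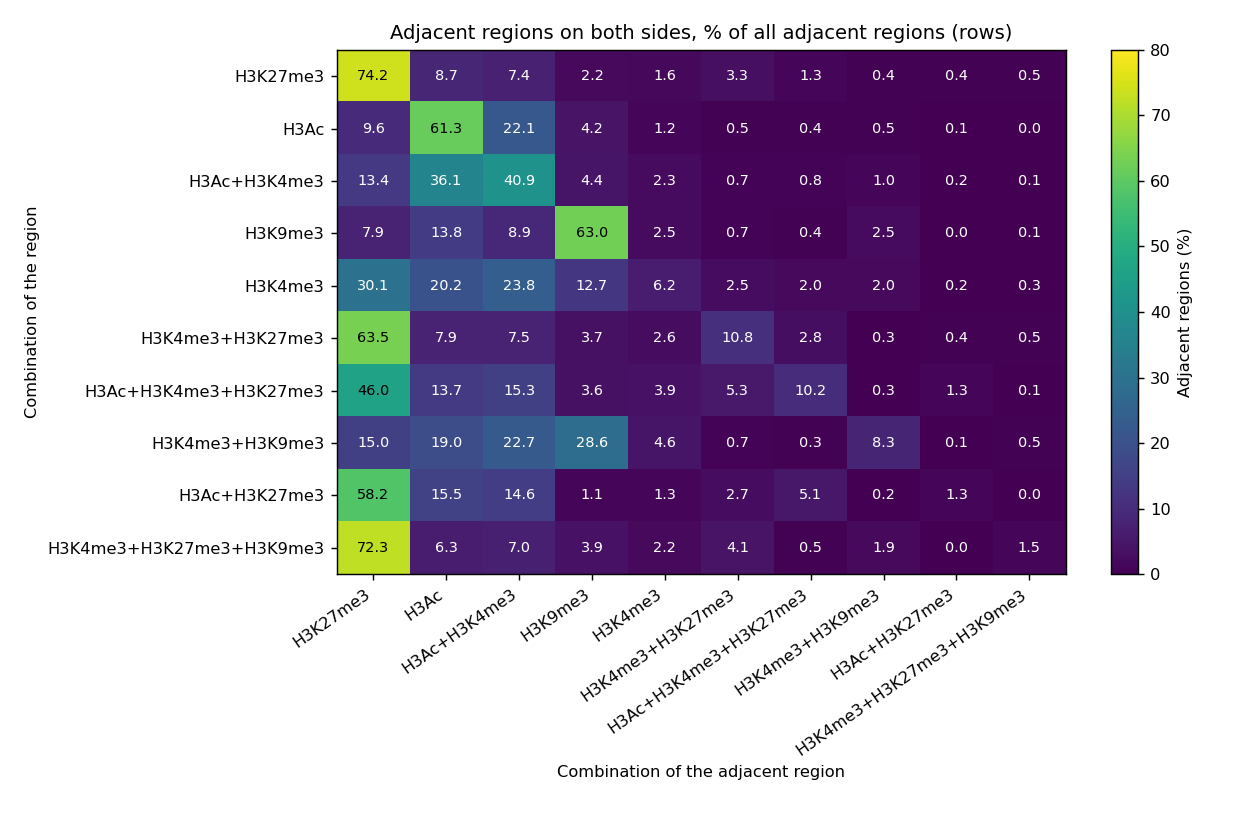
Combination of the adjacent regions on both sides (columns, % of all adjacent regions) for each of the 10 combinations with at least 200 regions (rows, by falling number of regions). H3K27me3 alone has the highest value with its own kind, 74.2%, and H3K4me3+H3K27me3 has H3K27me3 alone beside it in 63.5% of cases.

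Uninterrupted runs of 1 combination showed the scale of these neighbourhoods. They were counted without joining nearby peaks, so a wide domain reported as several peaks can count as a run. Of H3K27me3-only regions, 52.4% had another of their kind within 1 kb. Runs of 10 or more regions held 35.5% of H3K27me3-only, 32.7% of H3K9me3-only and 16.7% of H3Ac-only regions, but 0.565% of H3Ac+H3K4me3 regions. Such runs were short for H3K27me3, with a median span of 81.4 kb over 677 runs, and long for H3K9me3, with 773.7 kb over 113 runs. H3Ac-only runs of this length had a median span of 158.0 kb. The longest run of H3K27me3 alone held 84 regions over 422.0 kb on chromosome 9 from 43121150 to 43543176. The longest of H3K9me3 alone held 144 regions over 1329 kb on chromosome 5 from 94952312 to 96281283. Next came 137 regions between 115015382 and 117250124 of chromosome 12, then 128 between 7331162 and 9998753 of chromosome 7. The longest H3Ac-only run held 41 regions over 510.4 kb on chromosome 2 from 117276273 to 117786686. The next held 32 regions on chromosome 15 from 61878305 to 63559324, where H3Ac peaks covered only 3.24% of 1681 kb. In the run after that, of 31 regions on chromosome 3 from 141889900 to 142049933, they covered 40.0% of 160.0 kb. H3K4me3 alone formed 1 run above 5 regions, of 8 regions on chromosome 4 from 145692832 to 145758253, in which it covered 67.9% of 65.4 kb.

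Distance to H3K4me3 separated H3K9me3 from the other single marks. The nearest region with H3K4me3 lay a median of 21284 bases from H3Ac-only and 20305 bases from H3K27me3-only regions, and 106599 bases from H3K9me3-only regions. Within 10 kb of H3K4me3 were 32.9% (32.4 to 33.5) of H3Ac-only, 32.6% (32.1 to 33.1) of H3K27me3-only and 13.01% (12.3 to 13.7) of H3K9me3-only regions. Within 100 kb the shares were 86.5%, 89.3% and 48.6%. The 226 H3Ac+H3K27me3 regions lay nearer, with a median of 12812.5 bases and 44.7% (38.1 to 51.4) within 10 kb.

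In windows of 1 Mb, the active and Polycomb marks were found in the same windows and H3K9me3 was not tied to them. Across 2425 windows, the bases covered by H3Ac and H3K4me3 had a Spearman rho of 0.92, H3K4me3 and H3K27me3 of 0.73, and H3Ac and H3K27me3 of 0.66. H3K9me3 had 0.02 with H3Ac, 0.08 with H3K4me3 and -0.05 with H3K27me3. The windows share gene density and mappable sequence, which were not measured, and the values describe these libraries only. H3K9me3 was also the most concentrated, but its list was the shortest and the windows were not recounted with equal lists. The 121 windows with the most H3K9me3, 5% of all, held 48.9% of its bases, against 33.0% for H3K27me3, 22.5% for H3K4me3 and 19.9% for H3Ac in their own top windows. The top H3Ac window, on chromosome 19 from 5 to 6 Mb, held 274.8 kb of H3Ac, 127.5 kb of H3K4me3, 33.6 kb of H3K27me3 and 3.598 kb of H3K9me3. The top H3K27me3 window, on chromosome 11 from 96 to 97 Mb, held 437.8 kb of H3K27me3 and also 164.0 kb of H3Ac. The top 2 H3K9me3 windows, on chromosome 4 from 145 to 147 Mb, held 475.3 and 509.6 kb of H3K9me3. They held 141.5 and 88.7 kb of H3K4me3, the first of them more H3K4me3 than any other window, but only 12.4 and 9.78 kb of H3Ac and 1.75 and 1.54 kb of H3K27me3. The third H3K9me3 window, on chromosome 1 from 85 to 86 Mb, held 173.9 kb of H3K9me3 in 41 regions and no other mark.

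The chromosomes differed in how much of each combination they held per Mb, counted up to the last peak. H3Ac+H3K4me3 ran from 4.90 regions per Mb on chromosome 1 to 11.3 on chromosome 11, and H3K27me3 alone from 5.65 on chromosome 3 to 21.5 on chromosome 11. H3K9me3 alone was lowest on chromosome 11, at 2.04, and highest on chromosome 12, at 6.86. The share of H3K4me3 regions with H3Ac was nearly even, from 75.5% on chromosome 12 to 84.8% on chromosome 3. The share with H3K27me3 ran from 8.12% on chromosome 16 to 14.8% on chromosome 6, and the share with H3K9me3 from 2.64% on chromosome 14 to 7.75% on chromosome 17.

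The widest and strongest regions of each combination show these forms at single places. The widest region of all was H3Ac+H3K4me3 on chromosome 15 from 77617378 to 77672243. In its 54866 bases, 1 H3Ac peak met 2 H3K4me3 peaks over 9354 bases. The H3Ac+H3K4me3 region with the highest mean percentile of its 2 scores was a compact 2923 bases on chromosome 12 from 29333363 to 29336285, 2432 of them with both marks. Its scores, 3211 for H3Ac and 3170 for H3K4me3, lay in the range of the ceiling, where the order of peaks need not follow their strength. The widest H3K4me3+H3K27me3 region had the reverse proportions, 32226 bases on chromosome 11 from 96023454 to 96055679, of which 2723 carried both marks, with an H3K27me3 score of 2174 and a highest H3K4me3 score of 361.4. The strongest one by mean percentile, on chromosome 14 from 109309732 to 109313926, had both marks over 4079 of its 4195 bases, and its nearest neighbour lay 607433 bases away. Among H3K4me3+H3K9me3 regions the widest, on chromosome 4 from 146527414 to 146561464, held 4 H3K4me3 peaks under 1 H3K9me3 peak, with both marks over 24286 of 34051 bases. The strongest lay on chromosome 16 from 98228383 to 98235799, with scores of 3016 for H3K4me3 and 2539 for H3K9me3 and both over 6176 of 7417 bases. The strongest region with H3K4me3+H3K27me3+H3K9me3 was on chromosome 1 from 172997759 to 173000448, where all 3 marks covered 2397 of 2690 bases.

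Single-mark regions also reached large sizes. The widest H3Ac-only region lay on chromosome 4 between 138777051 and 138799203, 22153 bases long, and scored 3091. The widest H3K27me3-only region spanned 23363 bases on chromosome 2 from 147846319 to 147869681, and the widest H3K9me3-only region 20637 bases on chromosome 4 between 147005904 and 147026540, the last scoring 131.8. H3K4me3 alone reached 12770 bases on chromosome 4 between 145723031 and 145735800. This region, scoring 1532, was both the widest and the strongest of its combination. The widest H3Ac+H3K27me3 region, on chromosome 6 from 51128728 to 51150023, was an H3K27me3 peak with a score of 3227 that met an H3Ac peak at the 36.4th percentile of its list over 138 bases. The only H3Ac+H3K27me3+H3K9me3 region, on chromosome 1 from 90179233 to 90189407, was a chain of 4 peaks. Its H3Ac peak stood at the 4.97th percentile of its list, the stronger H3K27me3 peak at the 55.9th and the H3K9me3 peak at the 61.2nd.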

How the data were processed

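The members and the quantities shown were chosen with earlier results of these data known. Peaks were read from the 4 lists the authors deposited for the GFP histone libraries, 1 library per mark. Each line holds chromosome, start, end, a peak name beginning with MACS and a score, with no header. The deposited score has no stated unit and depends on the library and on its control, whose identity the sources used here do not give. The labels number the 4 immunoprecipitated libraries as replicate 3 and the GFP histone input as replicate 1, so that input carries another replicate number. The build was NCBIM37 and the tools included MACS 1.4.1, bedtools 2.16.2, SAMtools 0.1.18 and BWA, per the submitters' processing notes, which give no roles and list RNA tools too. Read depth was unknown.

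Peaks of chromosomes 1 to 19 were merged by overlap of at least 1 base, and gaps were counted between merged regions. Chromosome length was the last peak end. Windows of 1 Mb left out the first 3 Mb of each chromosome, where the earliest peak began at base 2999856. Merging was tested on simulated data. Alternatives were a minimum score of 100, joining within 1000 bases, joining by 50% of the shorter peak, 9574 top-scoring peaks per list, and adding chromosome X. Regions named are the widest and the highest by mean score percentile in each combination, the 5 widest regions with 4 marks (the other one was added after values were seen), the 3 longest runs of each single mark and the 3 longest empty stretches. The top windows, the quintiles and the shares split by silent marks or by H3K4me3 were chosen after values were seen. Planned marker genes were not looked up, and no sequence was printed, because no genome of build NCBIM37 was used here. Cre, RNA, Rb and input samples were not analysed here. Python 3.11.15 was used with pandas 2.3.3, NumPy 2.4.6, SciPy 1.17.1 and matplotlib 3.10.9.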

Additional observations from a re-analysis of the deposited data

Results flagged for a closer look

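Peaks of the 4 lists outside chromosomes 1 to 19 were not part of the map. On chromosome X the lists held 791 H3Ac, 770 H3K4me3, 1967 H3K27me3 and 958 H3K9me3 peaks. That is 8.80% (8.28 to 9.35) of all H3K9me3 peaks and 5.45% (5.22 to 5.69) of H3K27me3 peaks, against 3.23% (3.01 to 3.47) of H3K4me3 and 1.62% (1.51 to 1.74) of H3Ac peaks. On unplaced sequence there were 79 H3Ac, 67 H3K4me3, 28 H3K27me3 and 344 H3K9me3 peaks, so that H3K9me3 had the largest share there too, 3.16% (2.84 to 3.51). Chromosome Y held 4 H3Ac, 4 H3K4me3 and 9 H3K9me3 peaks and no H3K27me3 peak.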

How the results depend on the processing

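The 30 counts and shares were recomputed under 5 alternatives, and those that left their interval (shares) or moved by over 1.5 times (counts) are given here. The shares of H3Ac split by silent mark, those of regions that hold H3K4me3 and those of H3K9me3 regions with H3K27me3 were chosen after seeing the data. With peaks scoring at least 100, the number of regions was 18214 for H3Ac, 19345 for H3K27me3, 2723 for H3K9me3, 97 for H3Ac+H3K27me3, 994 for H3K4me3+H3K27me3, 1 for H3Ac+H3K9me3 and 336 for H3K4me3+H3K9me3. It was 7 for H3K27me3+H3K9me3, 479 for H3Ac+H3K4me3+H3K27me3, 12 for H3Ac+H3K4me3+H3K9me3, 0 for H3Ac+H3K27me3+H3K9me3, 75 for H3K4me3+H3K27me3+H3K9me3 and 2 for all 4 marks under the same setting. Shares there were 29.2% for regions with 2 or more marks, 85.7% for H3K4me3 regions with H3Ac, 8.50% for H3K4me3 regions with H3K27me3 and 54.0% for H3Ac without H3K4me3. Further, 92.1% was the value for H3K27me3 alone among its regions, 86.3% for H3K9me3 alone among its regions, 56.6% for regions followed by the same combination and 92.6% for H3Ac at H3K4me3 with neither. With the 9574 top-scoring peaks of each list, the number of regions was 1611 for H3Ac, 9324 for H3K27me3, 7524 for H3Ac+H3K4me3, 5 for H3Ac+H3K27me3, 85 for H3K4me3+H3K27me3, 1 for H3Ac+H3K9me3 and 35 for H3K4me3+H3K9me3. It was 95 for H3K27me3+H3K9me3, 42 for H3Ac+H3K4me3+H3K27me3, 14 for H3Ac+H3K4me3+H3K9me3, 0 for H3Ac+H3K27me3+H3K9me3, 8 for H3K4me3+H3K27me3+H3K9me3 and 1 for all 4 marks under the same setting. Shares there were 26.1% for regions with 2 or more marks, 79.9% for H3K4me3 regions with H3Ac, 1.43% for H3K4me3 regions with H3K27me3 and 17.6% for H3Ac without H3K4me3. Further, 97.5% was the value for H3K27me3 alone among its regions, 98.4% for H3K9me3 alone among its regions, 25.9% for H3Ac at H3K4me3 with H3K9me3 and 80.9% for H3Ac at H3K4me3 with neither. With joining by 50% of the shorter peak, the number of regions was 122 for H3Ac+H3K27me3, 5 for H3Ac+H3K9me3 and 561 for H3Ac+H3K4me3+H3K27me3. It was 0 for H3Ac+H3K27me3+H3K9me3 and 3 for all 4 marks under the same setting. Shares there were 22.5% for regions with 2 or more marks, 9.81% for H3K4me3 regions with H3K27me3 and 93.1% for H3K27me3 alone among its regions. Further, 25.8% was the value for H3Ac at H3K4me3 with H3K27me3, 2.67% for H3Ac at H3K4me3 with H3K9me3 and 89.8% for H3Ac at H3K4me3 with neither. With peaks within 1000 bases joined, the number of regions was 940 for H3K4me3, 18167 for H3K27me3, 430 for H3Ac+H3K27me3, 39 for H3Ac+H3K9me3 and 67 for H3K27me3+H3K9me3. It was 1301 for H3Ac+H3K4me3+H3K27me3, 62 for H3Ac+H3K4me3+H3K9me3, 3 for H3Ac+H3K27me3+H3K9me3 and 21 for all 4 marks under the same setting. Shares there were 25.6% for regions with 2 or more marks, 17.5% for H3K4me3 regions with H3K27me3, 62.3% for H3Ac without H3K4me3, 84.1% for H3K27me3 alone among its regions and 86.1% for H3K9me3 alone among its regions. Further, 49.1% was the value for regions followed by the same combination, 44.95% for H3Ac at H3K4me3 with H3K27me3, 8.35% for H3Ac at H3K4me3 with H3K9me3 and 92.9% for H3Ac at H3K4me3 with neither. With chromosome X added, shares were 60.6% for H3Ac without H3K4me3 and 89.97% for H3K9me3 alone among its regions. Further, 59.3% was the value for regions followed by the same combination. With scores of at least 100, H3K4me3 was in 99.4% of all regions with 2 or more marks, 93.7% of H3K27me3 regions with another mark and 98.2% of H3K9me3 regions with another mark, and H3K27me3 in 0.256% of H3K9me3 regions without it and 18.1% of H3K9me3 regions with it. With equal lists, H3K4me3 was in 57.6% of H3K27me3 regions with another mark and 37.7% of H3K9me3 regions with another mark, and H3K27me3 in 0.999% of H3K9me3 regions without it and 15.5% of H3K9me3 regions with it. With joining by 50%, H3K4me3 was in 99.2% of all regions with 2 or more marks and 93.5% of H3K27me3 regions with another mark. With joining within 1000 bases, H3K4me3 was in 96.7% of all regions with 2 or more marks, 85.5% of H3K27me3 regions with another mark and 90.1% of H3K9me3 regions with another mark, and H3K27me3 in 1.01% of H3K9me3 regions without it and 25.2% of H3K9me3 regions with it. The cause of these shifts was not tested, beyond the fewer peaks or wider joins that the settings make. No paired analysis was possible because each mark had 1 library, and no replicate could be left out. Read depth, which was unknown, and the 1 library per mark limit all of these values.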

Other observations

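Acetylated regions without another mark were alike in strength whatever their distance from H3K4me3. The median H3Ac score was 124.1 for the 2611 regions within 1 kb of a region with H3K4me3, 132.9 for the 10872 regions 10 to 50 kb away and 118.85 for the 3744 regions 100 kb or more away. Their median width ran from 1150 bases within 1 kb to 1324 bases at 10 to 50 kb. By contrast, H3Ac peaks in H3Ac+H3K4me3 regions had a median score of 982.9.

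Long stretches without any peak were few. Of 89507 gaps between regions, 447 reached 500 kb, and the longest were 7008 kb on chromosome 7 from 39349575 to 46357426, 2515 kb on chromosome 8 from 99155195 to 101670377 and 2262 kb on chromosome 1 from 123678067 to 125939729. An H3K9me3-only region stood before each of the 3, and after the first 2 of them. Unassembled or unmappable sequence was not measured and its part in these stretches was not tested.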
